A study of Anas platyrhynchos with 12 samples.

Results

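Semaphorins are guidance ligands, plexins are their main receptors, and neuropilins are co-receptors that pair with plexins. These genes were described in breast muscle of ducks (Anas platyrhynchos). The members were taken by symbol from a table of 16433 gene models, and 29 rows carried such a symbol. They comprise 18 semaphorin rows, 9 plexin rows and 2 neuropilin rows. SEMA7A was selected on its small p in the comparison below, that is, chosen by the counts of the same libraries, so its difference between the groups is given as a description. It was part of the fit across all genes and is in the counts of members below, but its p supports nothing here.

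The ducks came from an F2 population and were 42 days old. All were farmed under the same conditions with free access to food and water, and they were grouped by breast muscle ratio as high (HB, 6 libraries) or low (LB, 6 libraries). The comparison asks which genes differ between ducks with much and with little breast muscle, a growth trait. RNA of whole breast muscle was sequenced, and each value is a read count or an FPKM, which is a count scaled by the length of the gene model and by library size. Libraries held 33124019 to 42503751 counts in HB and 24090771 to 39718065 in LB. The skeletal muscle markers ACTA1 and MYL1 were abundant, averaging 38930 ± 10210 and 13210 ± 1503 FPKM in HB, against 34860 ± 5183 and 12750 ± 2009 in LB (SD, n = 6). Library HB-4 stood apart in log2 CPM, which are counts scaled to library size by edgeR. It was the lowest or highest library for 40.4% of the 12577 tested genes, where each other library was so for 9.76% to 20.8%. Values without HB-4 are given beside the members that it moves most.

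Semaphorins bind plexins, whose inner part acts on small GTPases and thereby changes the cytoskeleton and the adhesion of a cell. Class 3 semaphorins are secreted and mostly need a neuropilin to reach a plexin, while classes 4, 5 and 6 span the membrane and class 7 is anchored to it by a lipid. In mammals the family steers motor axons, vessels and immune cells. In rodent muscle, satellite cells, the muscle stem cells, secrete Sema3a during regeneration.

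The symbols of 4 rows did not identify a gene on their own. The row with the symbol SEMA4G (ncbi_113843998) is described in the authors' deposited table as leucine zipper putative tumor suppressor 2, and the RefSeq gene table names this number LZTS2. In that table LZTS2 and SEMA4G are different genes with 2 protein-coding genes between them, so the row is called LZTS2 here and is left out of the sums and counts of semaphorins. A row with the symbol Sema3d (ncbi_101805082) is described as semaphorin-3D-like, has no gene symbol in RefSeq and lies on another chromosome than SEMA3D (ncbi_101803812). It is called SEMA3D-like. PLXNA4 had 3 rows, of which 1 (ncbi_101792919) is PLXNA4 in RefSeq. The second (ncbi_101804347) and the third (ncbi_113844101) are not matched there, and reads of 1 gene may be split among them. RefSeq also lists SEMA3B, SEMA3G and SEMA4G under gene numbers that had no row here. Ranks, sums and shares below cover the measured rows only.

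Between HB and LB, 0 of 28 tested members passed the threshold of an adjusted p under 0.05 in edgeR, where 0% of all 12577 tested genes passed. DESeq2 also called 0 members, and it called 0.00668% of all genes, which is 1 gene. An unadjusted p under 0.05 in edgeR was found for 3 members, SEMA7A, SEMA3D-like and LZTS2, where 4.58% of all genes had one. Of these SEMA7A and SEMA3D-like were lower in HB, where 2.23% of all genes were, and LZTS2 was higher, where 2.35% were. LZTS2 is a member by its symbol only, and the counts of the 28 tested members include it. Nothing is read from the count of 3, since SEMA7A was chosen on it. Without HB-6 the count was 7, where 864 of all 12672 tested genes had such a p. Without HB-2 it was 5, where 715 of all 12691 tested genes had one. Of the 28 tested members, 19 had lower and 9 had higher values in HB, against 50.1% of all genes with lower values. The median log2 difference of the members was -0.04, and that of all genes 0.00. The groups did not overlap for 0 members and for 0.0954% of all genes. The third PLXNA4 row, with 4 counts in HB-5 and 0 elsewhere, was the 1 member not tested.

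Levels in the family spanned a wide range, and a receptor stood at the top. PLXND1, the plexin that guides vessel growth in mice, averaged 160.4 ± 43.8 FPKM over the 12 libraries (SD). NRP1 followed with 60.7 ± 15.01 FPKM and NRP2 with 42.8 ± 11.2 FPKM. SEMA7A had the highest mean of the ligands, 42.4 ± 11.1 FPKM. SEMA6C (36.9 ± 8.92 FPKM), SEMA3D-like (35.4 ± 20.5 FPKM) and SEMA6B (29.4 ± 5.96 FPKM) came next. The step from SEMA7A to SEMA6C, 5.41 FPKM, was smaller than the larger SD of the pair, and SEMA7A did not lead in every library. SEMA6C was higher in HB-1 and HB-2, SEMA6B in HB-3, HB-4 and HB-5, and SEMA3D-like in LB-5 and LB-6. At the low end were SEMA4D with 1.41 ± 0.34 FPKM, the second PLXNA4 row with 0.45 ± 0.29 FPKM and SEMA3E with 0.09 ± 0.13 FPKM. Of the 29 rows, 26 averaged at least 1 FPKM. Steps between neighbours in this order were mostly small: 21 of 28 were no larger than the larger SD of the pair. PLXND1 above NRP1 (in 12 of 12 libraries), NRP1 above NRP2 (in 9 of 12) and SEMA4C above PLXNA1 (in 10 of 12) were steps beyond that spread.

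**Figure D1:**
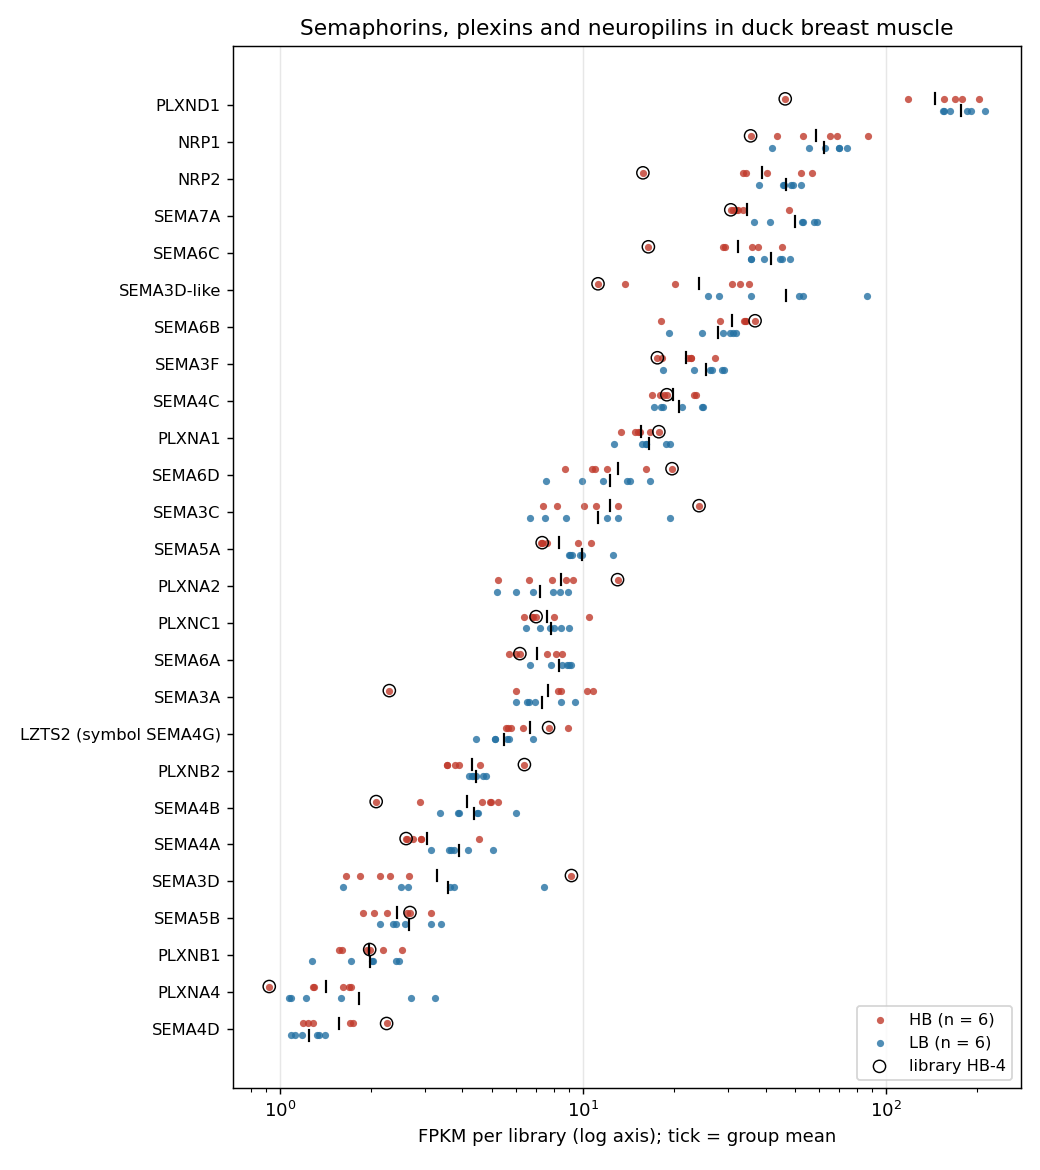
FPKM of the 26 rows that averaged 1 FPKM or more, in each of the 6 HB and 6 LB libraries on a log axis, with a tick at each group mean and a ring around HB-4. PLXND1 lies above all others in every library, and HB-4 lies far from the other HB libraries for PLXND1, NRP2, SEMA3A, SEMA3C and SEMA3D.

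SEMA7A (ncbi_101799220) encodes the lipid-anchored class 7 semaphorin, which in mammals binds plexin C1 and beta 1 integrins. It had a lowest, median and highest value of 30.7, 32.1 and 47.95 FPKM in HB, against 36.6, 52.8 and 59.0 FPKM in LB. Of the HB libraries, 5 lay below every LB library, and HB-6, the highest, lay within the LB range. The means were 34.6 ± 6.61 FPKM in HB, against 50.1 ± 9.13 in LB (SD, n = 6), a log2 difference of -0.49 ± 0.14 (SE in edgeR). Leaving out single libraries moved it from -0.59 without HB-6 to -0.43 without LB-4, and without HB-4 it was -0.47. SEMA7A made up 15.2 ± 1.16% of the summed semaphorin FPKM in HB and 18.3 ± 4.07% in LB. The HB shares, 14.3% to 17.2%, lay within those of LB, 13.4% to 23.5%, and LB-5 had the lowest share of all libraries.

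No gene for a receptor of SEMA7A passed the threshold, where 0% of all 12577 tested genes passed in edgeR. PLXNC1 (ncbi_101790206) had 6.38, 6.92 and 10.4 FPKM as lowest, median and highest value in HB, against 6.49, 7.89 and 8.96 in LB. Its groups overlapped over nearly the whole range, and its log2 difference was -0.00 ± 0.13 (adjusted p = 0.999 in edgeR, 95% interval -0.28 to 0.27). HB-6, the HB library with the most SEMA7A, also held the most PLXNC1 of all libraries. ITGB1, the beta 1 integrin, had 142 ± 22.7 FPKM in HB, against 153 ± 14.9 in LB. Its partner chains ITGA1 and ITGAV averaged 19.8 ± 3.84 and 13.9 ± 3.97 FPKM in HB, against 18.6 ± 4.16 and 13.3 ± 1.89 in LB. None of these 3 integrin genes passed the threshold, with log2 differences of -0.07 ± 0.10, 0.14 ± 0.16 and 0.10 ± 0.17 for ITGB1, ITGA1 and ITGAV. Without HB-4, the highest library for ITGA1 and ITGAV in HB, these were -0.04, 0.03 and -0.07. Whether the SEMA7A difference exceeds that of its receptors was not tested.

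**Figure D2:**
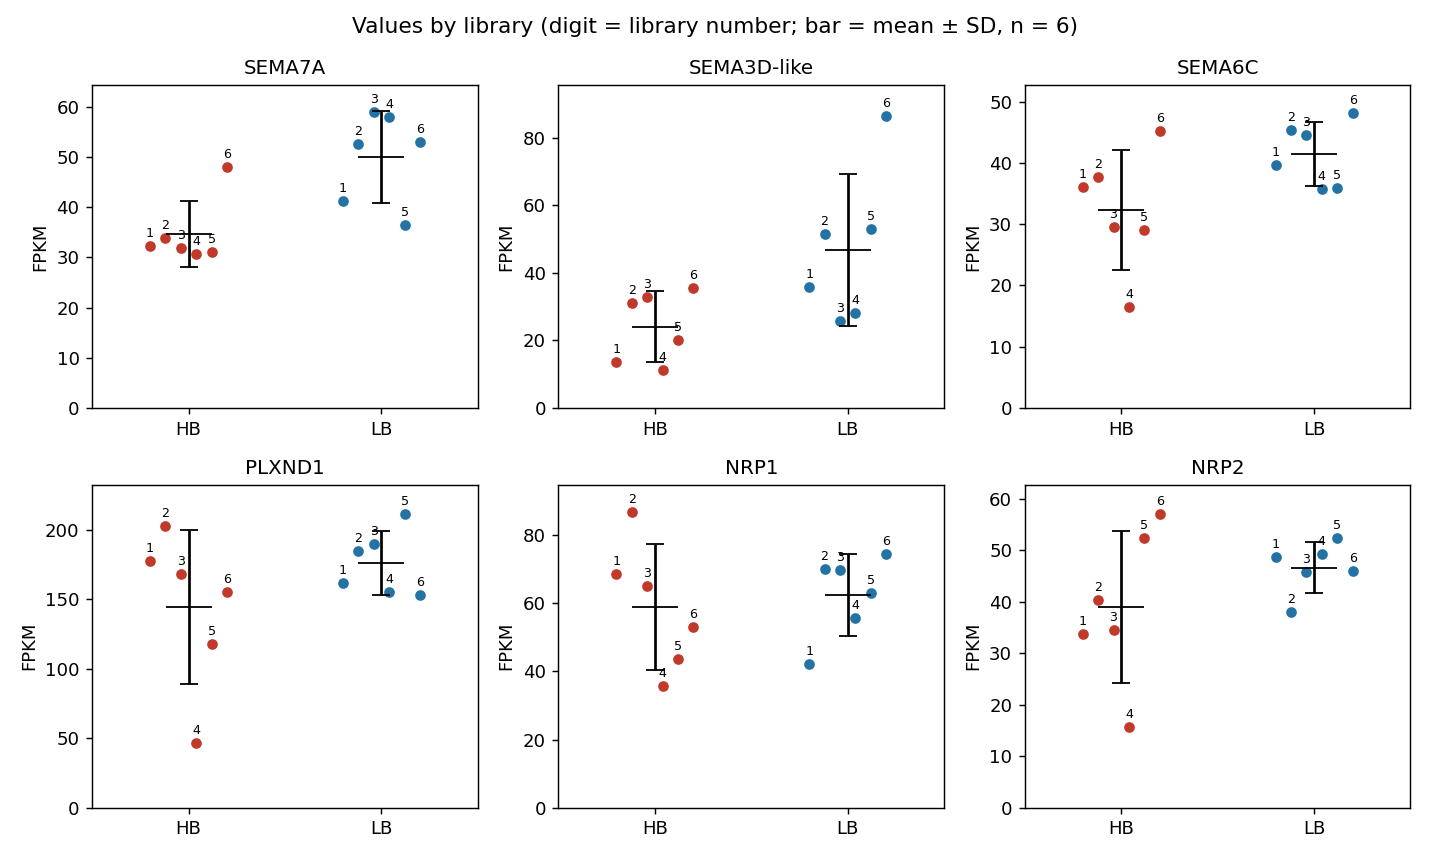
FPKM of 3 ligands (top) and 3 receptors (bottom) in the 6 HB and 6 LB libraries, each point marked with its library number, with the mean and SD of each group. For SEMA7A 5 HB libraries lie below every LB library, for SEMA3D-like 4 LB libraries lie above every HB library, and for PLXND1 and NRP2 HB-4 is far below the rest.

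The secreted class 3 semaphorins had 6 rows, all tested, and the row named SEMA3D-like had the largest difference of the family among rows with at least 1 FPKM. SEMA3D-like had 11.2, 25.6 and 35.4 FPKM as lowest, median and highest value in HB, against 25.8, 43.7 and 86.5 FPKM in LB. Of the LB libraries, 4 lay above every HB library, and LB-6 was the highest while the other 11 libraries did not exceed 53.0 FPKM. Its means were 24.1 ± 10.4 FPKM in HB, against 46.8 ± 22.6 in LB (SD, n = 6). The log2 difference of -0.90 ± 0.32 (SE) did not pass the threshold (unadjusted p = 0.015, adjusted p = 0.977 in edgeR). It was -0.67 without LB-6, -0.76 without HB-4 and -1.03 without HB-6, its extremes over single libraries being those without LB-6 and HB-6. This row's place in the family is known only from its description and its RefSeq record without a symbol, so no role is given to it.

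SEMA3D itself showed a different pattern. It had 1.65, 2.22 and 9.15 FPKM as lowest, median and highest value in HB, against 1.61, 3.14 and 7.43 in LB. HB-4 and LB-3 carried these high values, and the other 10 libraries lay at or below 3.75 FPKM. Its log2 difference was -0.06 ± 0.46 (adjusted p = 0.995 in edgeR), and without HB-4 it was -0.71. It was above 0 without LB-3 and without each HB library other than HB-4. SEMA3C, which patterns the outflow tract of the heart in mice, reached 24.1 FPKM in HB-4, where the other 11 libraries spanned 6.66 to 19.4 FPKM. Its log2 difference was 0.20 ± 0.31 (adjusted p = 0.987 in edgeR) and turned to -0.13 without HB-4.

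SEMA3A, a repellent of motor axons, went the other way in HB-4. It had 2.29 FPKM there, against 6.002 to 10.8 FPKM in the other 11 libraries. HB values were 2.29, 8.38 and 10.8 FPKM (lowest, median, highest) and LB values 6.002, 6.77 and 9.38 FPKM, so the groups overlapped. The log2 difference of SEMA3A was 0.10 ± 0.27 (adjusted p = 0.991 in edgeR), 0.29 without HB-4 and -0.00 without HB-6. It was also below 0 with limma on log2 FPKM.

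SEMA3F, which acts through NRP2 in mice, had 21.8 ± 3.54 FPKM in HB, against 25.4 ± 4.05 in LB (SD, n = 6), with a log2 difference of -0.19 ± 0.14 (adjusted p = 0.977 in edgeR). SEMA3E, which in mice binds plexin D1 without a neuropilin, had 200 counts over all libraries, of which 90 were in HB-4. Its log2 difference of 1.44 ± 0.93 became 0.21 without HB-4. In RefSeq SEMA3D, SEMA3A and SEMA3E are neighbours with 0 protein-coding genes between them, and SEMA3C follows after 3. These neighbours differed in level, with means over 12 libraries of 3.44 FPKM for SEMA3D, 7.50 FPKM for SEMA3A, 0.09 FPKM for SEMA3E and 11.8 FPKM for SEMA3C.

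The class 4 semaphorins, several of which bind plexins of type B, had 4 tested members. SEMA4C, which takes part in myoblast differentiation in mice, was the most abundant with 19.8 ± 2.85 FPKM in HB, against 20.7 ± 3.40 in LB (SD, n = 6). Its values of 16.9 to 23.6 FPKM in HB lay almost wholly within those of LB, 17.1 to 24.8 FPKM, and its log2 difference was -0.04 ± 0.13 (95% interval -0.32 to 0.25, adjusted p = 0.991 in edgeR). SEMA4A, known from immune cells, had 2.61, 2.83 and 4.54 FPKM as lowest, median and highest value in HB, against 3.16, 3.70 and 5.03 in LB. As with SEMA7A, 5 HB libraries lay below every LB library and HB-6 was the exception. The log2 difference of SEMA4A was -0.31 ± 0.16 (adjusted p = 0.977 in edgeR), and -0.44 without HB-6. SEMA4D, the ligand of plexin B1, had 1.57 ± 0.41 FPKM in HB, against 1.25 ± 0.13 in LB. HB-4 was its highest library, and the log2 difference of 0.38 ± 0.19 became 0.25 without it. SEMA4B was lowest in HB-4 with 2.08 FPKM, where every other library held at least 2.90 FPKM, and its log2 difference of -0.02 ± 0.22 turned to 0.12 without HB-4. LZTS2, the row with the symbol of SEMA4G, had 5.55, 6.07 and 8.94 FPKM as lowest, median and highest value in HB, against 4.44, 5.36 and 6.83 FPKM in LB. Its groups overlapped, and its log2 difference was 0.34 ± 0.16 (adjusted p = 0.977 in edgeR).

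Both class 5 semaphorins, membrane proteins with thrombospondin repeats, were measured. SEMA5A had 7.29, 7.48 and 10.6 FPKM as lowest, median and highest value in HB, against 8.96, 9.48 and 12.6 FPKM in LB. Of the HB libraries 4 lay below every LB library, and LB-6 held the highest value. The log2 difference of SEMA5A was -0.21 ± 0.10 (adjusted p = 0.977 in edgeR). SEMA5B had 2.44 ± 0.47 FPKM in HB, against 2.67 ± 0.49 in LB, and the log2 difference was -0.09 ± 0.14.

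Class 6 took the largest share of semaphorin FPKM in HB, 37.0 ± 3.27%, against 32.6 ± 2.41% in LB (SD, n = 6). Class 3 took 30.4 ± 3.38% in HB and 33.6 ± 5.52% in LB. The semaphorin sum behind these shares was larger in LB, 277.2 ± 34.3 FPKM, against 226.5 ± 27.7 in HB. A higher share in HB is therefore not a higher level. SEMA6C, a transmembrane semaphorin found in muscle, had 16.4, 32.8 and 45.3 FPKM as lowest, median and highest value in HB, against 35.7, 42.1 and 48.2 FPKM in LB. Its lowest value was again that of HB-4, and 3 HB libraries lay below every LB library. The log2 difference of SEMA6C was -0.33 ± 0.18 (adjusted p = 0.977 in edgeR) and -0.19 without HB-4. SEMA6B had 30.9 ± 6.89 FPKM in HB, against 27.8 ± 4.96 in LB, and 4 HB libraries lay above every LB library while HB-2 was the lowest of all. Its log2 difference was 0.20 ± 0.19 (adjusted p = 0.977 in edgeR). SEMA6D, a ligand of plexin A1, spanned 8.68 to 19.7 FPKM in HB, with HB-4 highest, against 7.57 to 16.6 in LB, and its log2 difference of 0.15 ± 0.22 was -0.01 without HB-4. SEMA6A, a ligand of plexins A2 and A4, had 7.03 ± 1.21 FPKM in HB, against 8.34 ± 0.94 in LB, and the log2 difference was -0.20 ± 0.11 (adjusted p = 0.977 in edgeR).

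SEMA6A and SEMA4D lie on the Z chromosome in RefSeq. The median of 557 tested Z genes, relative to genes of other chromosomes, was lowest in HB-3 at -0.33 log2 units, while the other libraries lay between -0.04 and 0.08. HB-3 also held the lowest SEMA6A of all libraries, 5.70 FPKM, and the lowest SEMA4D of the HB group, 1.19 FPKM. Without HB-3 the log2 difference of SEMA6A was -0.14 and that of SEMA4D 0.45. The part of the Z level in these values was not tested, and the labels give no sex.

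**Figure D3:**
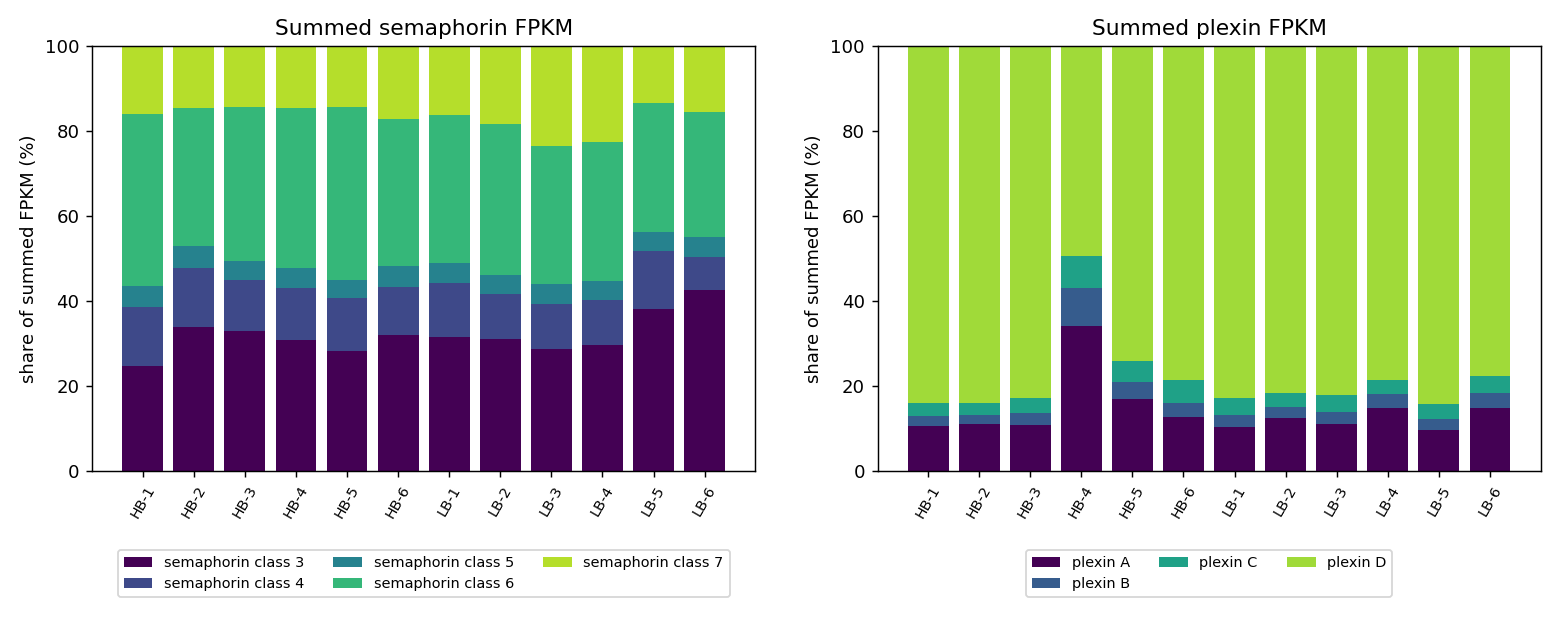
Share of summed FPKM by semaphorin class (left) and by plexin type (right) in each library, HB before LB. Classes 3 and 6 lead among semaphorins in all libraries, and plexin D holds 49.5% of plexin FPKM in HB-4 and more elsewhere.

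Among the receptors, plexin D made up 75.5 ± 13.3% of summed plexin FPKM in HB and 81.2 ± 2.58% in LB (SD, n = 6). PLXND1 had 46.4, 162 and 203 FPKM as lowest, median and highest value in HB, against 154, 174 and 211 FPKM in LB. HB-4 was the lowest, and the other 11 libraries held 118 to 211 FPKM, with overlapping groups. For PLXND1 the log2 difference was -0.25 ± 0.26 (adjusted p = 0.977 in edgeR), and without HB-4 it was -0.07. In HB-4 the share of plexin D was 49.5% and that of plexin A 34.1%, where the HB medians were 80.8% and 11.9%.

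Plexins A are the signalling partners of neuropilins and the receptors of class 6. PLXNA1 varied little, with 15.5 ± 1.52 FPKM in HB, against 16.4 ± 2.41 in LB, and its log2 difference was -0.03 ± 0.10 (95% interval -0.25 to 0.18, adjusted p = 0.991 in edgeR). PLXNA2 had 5.24, 8.33 and 12.99 FPKM as lowest, median and highest value in HB, against 5.20, 7.39 and 8.94 in LB. HB-4 held its highest value, and the log2 difference of 0.28 ± 0.21 was 0.11 without it. The matched PLXNA4 row had 1.42 ± 0.31 FPKM in HB, against 1.82 ± 0.93 in LB. LB-4 and LB-2 were its highest libraries with 3.24 and 2.70 FPKM, and they were also the highest for the second PLXNA4 row with 1.28 and 0.68 FPKM. Without LB-4 the log2 difference of the matched row was -0.04, where it was -0.31 ± 0.29 with all libraries.

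The plexins of type B were low. PLXNB1 had 1.97 ± 0.36 FPKM in HB, against 1.99 ± 0.45 in LB (SD, n = 6), with a log2 difference of 0.04 ± 0.17 that was below 0 with library totals as the only scaling, with limma on log2 FPKM and without HB-5, LB-1 or LB-2. PLXNB2 was highest in HB-4 with 6.403 FPKM, where the other 11 libraries spanned 3.55 to 4.78 FPKM. Of its HB values 4 lay below every LB library. Its log2 difference was -0.01 ± 0.15 (adjusted p = 0.999 in edgeR), and -0.17 when HB-4 was left out.

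The neuropilins bind class 3 semaphorins and also vascular endothelial growth factor. NRP1 had 35.7, 59.0 and 86.9 FPKM as lowest, median and highest value in HB, against 42.0, 66.4 and 74.5 FPKM in LB. Both the lowest and the highest library, HB-4 and HB-2, were HB libraries. Its log2 difference was -0.04 ± 0.18 (adjusted p = 0.993 in edgeR) and 0.07 without HB-4. NRP2 spanned 15.8, 37.4 and 57.1 FPKM in HB (lowest, median, highest), against 37.9, 47.3 and 52.3 in LB. HB-4 held the lowest NRP2 value, where the other 11 libraries held at least 33.7 FPKM, and the log2 difference was -0.23 ± 0.24 (adjusted p = 0.977 in edgeR), and -0.06 without HB-4.

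**Figure D4:**
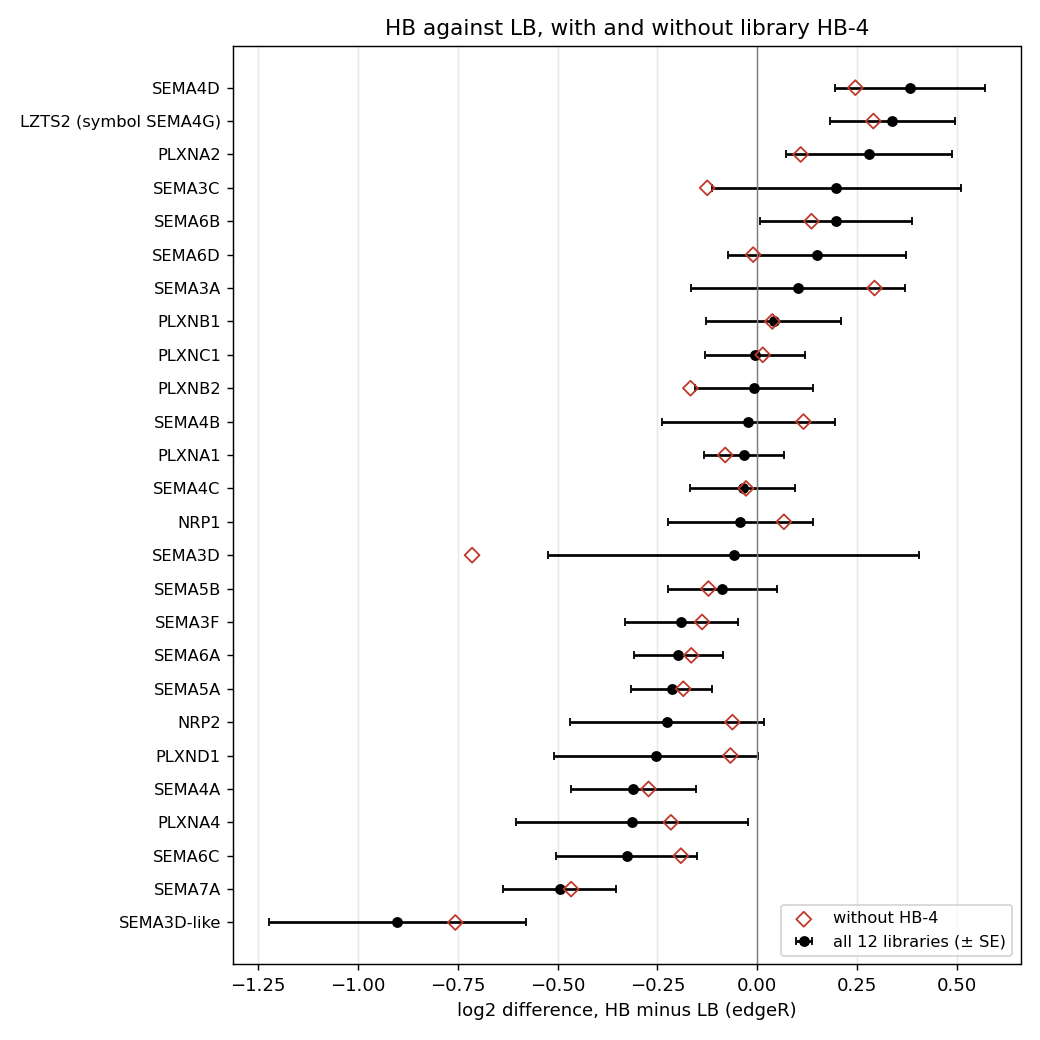
Log2 differences (HB minus LB) of the 26 rows with at least 1 FPKM, with SE bars from all 12 libraries and open diamonds for the values without HB-4. SEMA3D-like and SEMA7A lie farthest below 0, and SEMA3D moves most when HB-4 is left out, to -0.71.

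Over the family, the 17 semaphorin rows summed to 226 ± 27.7 FPKM in HB, against 277 ± 34.3 in LB (SD, n = 6). Most of this gap lay in SEMA7A, which was chosen on its own difference, and SEMA3D-like: the other 15 rows summed to 168 ± 14.6 FPKM in HB, against 180 ± 12.7 in LB, a split made after the values were seen. The 9 plexin rows summed to 184 ± 51.7 FPKM in HB, or 202 ± 29.6 without HB-4 (n = 5), against 216 ± 22.9 in LB. The neuropilins summed to 97.8 ± 25.3 FPKM in HB, or 107 ± 12.4 without HB-4, against 109 ± 10.6 in LB. Of the 17 semaphorins 11 were lower in HB, against 50.1% of all genes, and the median over all 17 was -0.06 (log2 difference). Of the 8 tested plexins 6 were lower in HB, and the median over all 8 was -0.02. In log2 CPM, HB-4 was the lowest or the highest library for 17 of 27 tested members (LZTS2 left out), which is 63.0% against 40.4% of all genes. The lowest and highest libraries in FPKM, given above, need not match these. Without HB-4, 18 of 28 members had lower values in HB, where 6463 of 12577 genes had. The median of the members was then -0.07, and 0 passed.

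Other parts of the pathway gave 0 calls, where 0% of all 12577 tested genes passed in edgeR. Of 26 listed co-receptors and partners of semaphorins, 20 were tested. Of these 12 had lower and 8 higher values in HB, against 50.1% of all genes with lower values. The median log2 difference of the 20 was -0.06. The most abundant after ITGB1 were SDC3, a heparan sulfate co-receptor, VEGFA, the vessel growth factor that also binds neuropilins, and KDR, its receptor. VEGFA had 29.7 ± 6.29 FPKM in HB, against 29.2 ± 12.5 in LB, and KDR had 25.1 ± 8.77 FPKM in HB, against 29.3 ± 10.8 in LB. SDC3 had 28.1 ± 12.8 FPKM in HB, against 33.9 ± 14.2 in LB. HB-4 was the lowest library for KDR with 8.88 FPKM and the highest HB library for SDC3. KDR had a log2 difference of -0.17 that turned to 0.01 without HB-4, and SDC3 one of -0.27 that became -0.47.

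Of 58 genes listed as effectors, 47 were tested. Of these 32 had lower and 15 higher values in HB, against 50.1% of all genes with lower values. The median log2 difference of the 47 was -0.05. The 4 most abundant were the small GTPases RHOA, RAC1 and CDC42 and the actin-severing protein CFL2. RHOA had 221 ± 40.1 FPKM in HB, against 230 ± 23.2 in LB, and RAC1 had 86.7 ± 12.6 FPKM in HB, against 95.6 ± 8.21 in LB. CDC42 had 77.0 ± 12.3 FPKM in HB, against 74.7 ± 9.18 in LB, and CFL2 had 69.0 ± 5.89 FPKM in HB, against 72.9 ± 8.16 in LB. RHOA had a log2 difference of -0.02 that turned to 0.04 without HB-4. An unadjusted p under 0.05 was found for 5 effectors, all lower in HB, where 2.23% of all genes had one with lower values, and for 1 partner, CNTN2. The count of effectors was 2 without HB-1, LB-1 or LB-3, 3 without HB-5, LB-4 or LB-5 and 4 without HB-4, and that of partners was 0 without HB-1, HB-4, LB-1, LB-2, LB-3 or LB-6. In these settings 456 to 602 of all genes had an unadjusted p under 0.05 in edgeR, in either direction, against 576 with all libraries. The 5, named here after their values were seen, were ARHGEF12, RAP1A, RASA1, ENAH and CNR1. CNR1 is a receptor at the cell surface, not a protein inside the cell. ARHGEF12, an exchange factor that links plexin B to RHOA, had 6.37 to 8.79 FPKM in HB and 8.63 to 10.3 FPKM in LB. ENAH, an actin regulator, had 14.4 ± 3.52 FPKM in HB, against 35.5 ± 40.4 in LB, with medians of 13.2 and 18.8 FPKM in HB and LB. LB-1 alone held 117 FPKM, and the log2 difference of ENAH was -1.33, but -0.33 without LB-1.

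Other guidance families in the same libraries also gave 0 calls, as did all 12577 tested genes in edgeR. Of 13 tested ephrins and Eph receptors 7 were lower in HB, against 50.1% of all genes, and the median log2 difference of all 13 was -0.09. EPHA6 was the 1 gene of this list with an unadjusted p under 0.05 in edgeR (log2 difference -0.68), where 4.58% of all genes had one. EPHB1, EPHA2, EFNB2 and EPHA4 were the most abundant, with means of 33.4, 10.7, 5.76 and 5.42 FPKM in HB, against 38.0, 8.55, 6.64 and 5.26 FPKM in LB. The higher mean of EPHA2 in HB came with 23.4 FPKM in HB-4: without it the HB mean was 8.14 FPKM and the log2 difference, 0.36 with all libraries, was -0.05. EPHA4 turned likewise, to a log2 difference of -0.03. Of the 21 tested genes of the netrin, slit and RGM systems 8 had lower values in HB, against 50.1% of all genes. The median of all 21 was 0.06. An unadjusted p under 0.05 was found for 0 of the 21, where 4.58% of all genes had one. That count was 3 without HB-2, and 1 without HB-6 or LB-6. Of all genes, 715, 864 and 558 had one without HB-2, HB-6 and LB-6, against 576 with all libraries. ROBO4, RGMA, UNC5B and RGMB led this list, with means of 16.3, 18.0, 12.8 and 8.50 FPKM in HB, against 17.2, 14.9, 13.1 and 9.24 FPKM in LB. RGMA had a log2 difference of 0.36 that became 0.15 without HB-4, and those of ROBO4 and RGMB, -0.05 and -0.06, turned to 0.07 and 0.055.

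Whole muscle holds vessels, nerves, connective tissue and blood besides fibres, and in such tissue fewer cells of a type and less RNA per cell cannot be told apart. Each of the 27 tested members was therefore compared over the 12 libraries with the mean of 11 marker lists, on log2 CPM (counts scaled to library size). Of these 297 relations 2 passed an adjusted p under 0.05 in the permutation test. SEMA3D was higher in libraries with more fibroblast markers (Pearson r = 0.91, permutation p = 5e-05, adjusted p = 0.0148; Spearman rho = 0.77, permutation p = 0.00459, adjusted p = 0.271). Without HB-4 and LB-3, the libraries farthest from the median of the list, r was 0.78. It was 0.97 within HB and 0.80 within LB (n = 6 each). SEMA4B was lower in libraries with a higher mean of the smooth muscle and pericyte markers (Pearson r = -0.88, permutation p = 0.00025, adjusted p = 0.0371). Its Spearman rho was -0.97 (permutation p = 1e-05, the smallest that the permutations can give, adjusted p = 0.00297), and without HB-4 and LB-1 r was -0.92. It was -0.98 within HB and -0.87 within LB. The mean of this list was highest in HB-4, 0.35 log2 units above the mean of the libraries. Its 2 most abundant markers went the other way there. MCAM had 89.8 FPKM in HB-4, the lowest of all libraries, and RGS5 had 154 FPKM, the lowest of HB. Without HB-4 alone, neither of these relations passed, with r of 0.84 and -0.82 and adjusted p in the permutation test of 0.175 and 0.247 for SEMA3D and SEMA4B.

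PLXND1 had r = 0.95 with the endothelial markers (permutation p = 0.00055, adjusted p = 0.0544) and rho = 0.80 (permutation p = 0.00274, adjusted p = 0.271). This relation leaned on HB-4, where the endothelial markers lay 0.78 log2 units below the mean of the libraries. Without HB-4 alone r was 0.75 (adjusted p = 0.303 in the permutation test). Without HB-4 and HB-5 r was 0.55, within HB it was 0.99 and within LB 0.58. HB-4 was also the highest library for other lists, among them the adipocyte (1.69 log2 units above the mean), fibroblast (0.73) and myofibre (0.46) markers. With these PLXND1 had r of -0.645, -0.63 and -0.60, none of which passed. Without HB-4 these r were -0.007, -0.065 and -0.17. All 24 endothelial markers were matched, 0 of them were at 0 in any library, and they summed to 775 to 1422 FPKM in HB and 1302 to 1788 FPKM in LB. Of these 24 markers 20 were lower in HB, or 15 without HB-4, against 50.1% of all genes with all libraries. The median log2 difference of all 24 was -0.18, or -0.09 without HB-4. The part of the endothelial markers in the PLXND1 difference was not tested. PLXNC1 had r = 0.79 with the macrophage markers (permutation p = 0.00261, adjusted p = 0.148), rho = 0.69 (permutation p = 0.0155, adjusted p = 0.271) and r = 0.72 without HB-3 and HB-6. Such relations were not particular to PLXND1 and PLXNC1, and those that follow did not pass either. With the endothelial markers SEMA3A had r = 0.89 (0.51 without HB-4) and SEMA3C had r = -0.81 (-0.61 without HB-4). With the macrophage markers SEMA4A had r = 0.77 (0.76 without HB-4).

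For SEMA7A none of the 11 relations passed (adjusted p in the permutation test of 0.472 to 0.932). Over all libraries its largest r was 0.47, with the Schwann cell and nerve markers (permutation p = 0.128), with rho = 0.22 (permutation p = 0.497) and r = 0.11 without LB-3 and LB-6. Without HB-4 alone that r was 0.467, and the largest were 0.56 with the fibroblast and 0.55 with the smooth muscle and pericyte markers. None of these passed either (adjusted p of 0.571, 0.525 and 0.525 in the permutation test). Of the Schwann cell and nerve list 15 of 20 markers were tested, 12 had lower values in HB, against 50.1% of all genes, and the median log2 difference was -0.32. Its markers summed to 42.3 to 66.9 FPKM in HB and 45.5 to 83.6 FPKM in LB, and 0 of them were at 0 in all libraries. The part of these markers in the SEMA7A difference was not tested. Within HB SEMA7A had r = 0.90 with the macrophage markers, and within LB -0.20 (n = 6 each), and over all libraries r was 0.42 (permutation p = 0.168), rho 0.34 (permutation p = 0.275), and r without HB-3 and HB-6 0.28.

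**Figure D5:**
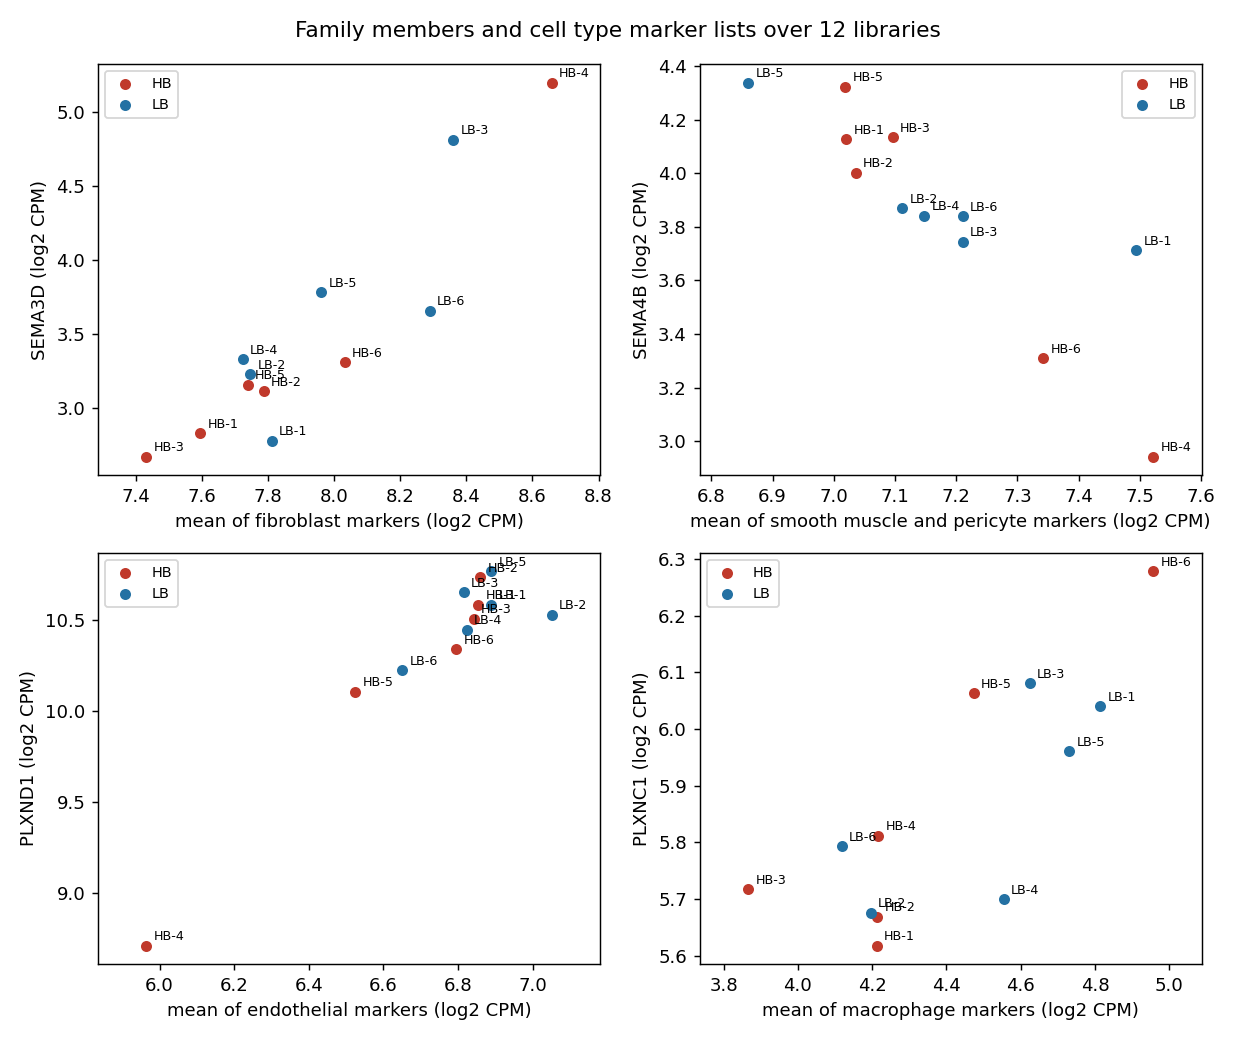
Level of 4 members against the mean of a marker list, both in log2 CPM, with each point 1 library. SEMA3D climbs with the fibroblast markers and SEMA4B declines with the smooth muscle and pericyte markers across both groups, while HB-4 lies alone at the low end of PLXND1 and of the endothelial markers.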

How the data were processed

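Per the submitters' processing notes, fastp 0.18.0, HISAT2, StringTie 1.3.1 and DESeq2 were used. Not given in the sources used here are genome build, annotation and counting. In the deposited table stand the authors' raw read counts per gene model for 12 libraries, and the authors' mean FPKM per group, per the file headers. A further 12 columns with values per library were not used. FPKM per library was computed from counts, library totals and the length implied by the deposited mean FPKM. Lengths implied by the HB and LB means differed by at most 0.463%. Column names give a library's group and a number that ties it to no sample, and no source says whether each sample is its own bird, so a p-value here covers spread among samples that may be technical.

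For the counts, edgeR 4.0.16 (quasi-likelihood test, R 4.3.3) was used (TMM, filterByExpr, Benjamini-Hochberg over 12577 genes, threshold 0.05), and the procedure was tested on simulated data. The simulated counts had a smaller spread between libraries than these data (33.1%, common to all genes in edgeR) and held no deviating library. That test therefore does not show which differences could be found here. The SE is the log2 difference divided by the square root of its F value. Alternatives used DESeq2 1.42.0, limma 3.58.1 and other scalings and filters, and left out each library. Relations with marker lists used 100000 permutations, two-sided, adjusted over 297 pairs. Library pairs differed by more than sampling noise (smallest chi-square per degree of freedom 66.8).

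Names came from the file and from RefSeq (assembly GCF_047663525.1, which matched 14057 of 15747 gene numbers), which may not be the assembly used for alignment, so no coordinates or sequences are given. Listed genes were matched by RefSeq symbol or else by the file's symbol, taking the model with the most counts. The members and lists were chosen with earlier results of these data known. All members with at least 1 FPKM are described, with the 4 most abundant genes of each pathway or guidance list and, outside this rule, ITGA1 and ITGAV as integrin partners of SEMA7A.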

Additional observations from a re-analysis of the deposited data

Results flagged for a closer look

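Some values lay far from the other libraries of their group; the gap to the next library, as a share of the group's range, passed Dixon's 95% critical value. This was asked of 70 groups of 6 libraries and met by 7, each time by a high value. Independent normal values would meet it in about 1 in 20. FPKM of genes in the same libraries need be neither independent nor normal, so the 7 are not set against chance. SEMA3D had 9.15 FPKM in HB-4, against 1.65 to 2.66 FPKM in the other HB libraries, and 7.43 FPKM in LB-3, against 1.61 to 3.75 FPKM in the other LB libraries. SEMA3C had 24.1 FPKM in HB-4, against 7.40 to 12.99 FPKM. PLXNB2 had 6.403 FPKM in HB-4, against 3.55 to 4.57 FPKM. SEMA7A had 47.95 FPKM in HB-6, against 30.7 to 33.8 FPKM in the other HB libraries, and SEMA4A had 4.54 FPKM in HB-6, against 2.61 to 2.92 FPKM. SEMA5A had 12.6 FPKM in LB-6, against 8.96 to 9.90 FPKM in the other LB libraries. The 70 groups did not cover every gene described here. High values such as those of EPHA2 and SEMA3E in HB-4 and of ENAH in LB-1 are not among the 7.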

How the results depend on the processing

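No member, partner, effector or other guidance gene was called under any of the 21 alternatives, and for all genes DESeq2 called 1 where edgeR and limma called 0. The number of relations with marker lists that passed was 2, and it was 1 with Spearman's rho, 5 with deviations from the group means and 0 to 3 without single libraries (0 without HB-1, HB-3, HB-4 or LB-6). Of 27 members 15 kept the sign of their log2 difference in all alternatives run, and 12 turned in at least 1 (SEMA3A, SEMA3C, SEMA3D, SEMA4B, SEMA4C, SEMA6D, PLXNA1, the second PLXNA4 row, PLXNB1, PLXNB2, PLXNC1 and NRP1). In 565 values 0 moved by more than the SD within groups. Leaving out 1 library of a group can hardly move a mean that far, so this 0 shows no robustness. SEMA3D, which went from -0.06 to -0.71 without HB-4, counts as not moved. The log2 difference of SEMA7A stayed between -0.59 and -0.43. Nothing is read from that range, since SEMA7A was chosen on its small p in the same comparison. No paired analysis was possible because the library numbers are in no label. Of the members under 1 FPKM, SEMA3E and the third PLXNA4 row rest on few counts, 200 and 4 over all libraries. The second PLXNA4 row had 1080.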
